A study of Mus musculus with 20 samples.

Results

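Expression of 10 genes of Wnt signaling and of the pericentral zone of the liver was followed across surgery and diet in male C57BL/6J mice. The genes were chosen by symbol among the 54532 genes of the count table, and they were *Axin2*, *Lgr5*, *Rnf43*, *Znrf3*, *Tbx3*, *Glul*, *Cyp2e1*, *Cyp1a2*, *Dvl1* and *Dact2*. All 10 had a symbol match and passed the filter on low counts, which kept genes reaching a CPM of 2 in 3 or more mice and left 12289 genes. CPM is the count scaled to the library's total, here with TMM factors, and is the unit of all levels given per mouse. Every mouse had become obese over 12 weeks on HFD, a high-fat diet. Surgery followed, either RYGB (a bypass of the Roux-en-Y kind, which leads food past most of the stomach and the upper gut) or a sham operation, and then 8 weeks of chow or HFD. Sham-operated mice formed the groups Sham Chow and Sham HFD and bypassed mice the groups RYGB Chow and RYGB HFD, with 5 mice in each and 1 liver library per mouse. Both chow groups are therefore mice returned to chow after obesity, not mice that were never obese. Per the study's methods, Sham HFD mice were heavier than all other groups, so body weight and the combination of sham surgery with HFD cannot be told apart here.

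Hepatocytes differ by their position between the portal vein, where blood enters the lobule, and the central vein, where it leaves. Endothelial cells of the central vein release Wnt ligands and R-spondin, which stabilize β-catenin in the nearest hepatocytes and so switch on the pericentral genes, among them the enzymes for glutamine synthesis and for much drug metabolism. R-spondins act through LGR receptors by removing the ubiquitin ligases RNF43 and ZNRF3 from the cell surface, which otherwise degrade the Wnt receptors. Dishevelled proteins, of which DVL1 is one, carry the signal from the receptors to the complex that degrades β-catenin, and DACT proteins bind dishevelled and modulate it.

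Total counts ran from 14604854 to 22537498 per mouse, and single counts of the 10 genes from 47 (*Lgr5* in a Sham Chow mouse) to 204910 (*Cyp2e1* in a RYGB HFD mouse). Reads carry no molecular identifiers. The summed level of 4 hepatocyte markers (Alb, Ttr, Apoa1 and Ahsg) lay between 66380 and 118676 CPM, so the defining genes of the labelled tissue were present in every library. In bulk tissue, fewer cells of a type and less RNA per cell cannot be told apart. A gene is called changed below when its adjusted p was under 0.05 in edgeR's quasi-likelihood test over the 12289 genes. Fold changes are log2 values with their standard error (SE). *Dvl1* and *Dact2* were singled out by the study from these same samples. Their direction, calls and lack of overlap here are therefore not independent evidence, and both genes are included in the counts over the 10 genes below.

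Sequence upstream of the start was read from RefSeq promoter windows (build GRCm38.p6, the 250 bases before the start), which held 7 of the 10 genes. 3 stretches are shown, of *Cyp1a2*, *Cyp2e1* and *Dvl1*, which rose in RYGB HFD over Sham HFD with groups that did not overlap and had bases before the first annotated exon in their window. Each ends where that exon begins in GENCODE M21, which for *Cyp1a2* and *Cyp2e1* is 48 and 80 bases before the RefSeq start. Distances given below are to the RefSeq start. *Dact2* rose likewise, but its window lay wholly within annotated exons and is not shown. Capitals mark matches to the letters CTTTGAA (with T allowed for either final A) of TCF/LEF factors, the nuclear partners of β-catenin, or to GCGTG, the core of the site of the aryl hydrocarbon receptor (AHR), a regulator of *Cyp1a2*. Both strands were searched.
Cyp1a2, chr9:57683704-57683905, minus strand: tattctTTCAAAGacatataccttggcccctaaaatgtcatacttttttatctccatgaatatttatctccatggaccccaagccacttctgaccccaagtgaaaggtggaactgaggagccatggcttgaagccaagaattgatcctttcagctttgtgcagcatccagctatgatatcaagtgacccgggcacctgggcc
Cyp2e1, chr7:140763569-140763738, plus strand: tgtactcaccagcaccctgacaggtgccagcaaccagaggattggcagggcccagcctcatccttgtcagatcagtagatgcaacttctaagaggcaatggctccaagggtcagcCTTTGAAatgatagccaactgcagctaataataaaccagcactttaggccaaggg
Dvl1, chr4:155847152-155847401, plus strand: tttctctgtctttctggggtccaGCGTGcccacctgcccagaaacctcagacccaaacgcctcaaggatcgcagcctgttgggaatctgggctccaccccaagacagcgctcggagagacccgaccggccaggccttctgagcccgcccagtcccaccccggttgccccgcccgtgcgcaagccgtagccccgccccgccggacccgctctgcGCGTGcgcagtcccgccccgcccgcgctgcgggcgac
*Cyp1a2* held CTTTGAA on the strand opposite to the gene, 244 bases before the start, so it reads TTCAAAG above. *Cyp2e1* held it on the strand of the gene, 135 bases before the start. The TCF/LEF letters occurred in 14.8% of the 32851 windows of all genes and in none of those of *Axin2*, *Rnf43*, *Glul*, *Dvl1* and *Dact2*. *Dvl1* held GCGTG 227 and 37 bases before its start, letters that 28.2% of all windows held, and *Rnf43* held it in 1 of its windows, 71 bases before. A match is a description of the letters, not of binding.

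*Cyp2e1*, an enzyme that oxidizes ethanol and other small molecules, was the most abundant of the 10 genes per exon length in every group. It reached 3855 ± 452 CPM per kb (mean ± SD, n = 5 mice) in Sham Chow. In that group *Cyp1a2* followed at 254 ± 83.3 and *Glul* at 230.0 ± 29.1 CPM per kb, and their ranges overlapped. Next came *Dvl1* at 17.0 ± 0.775 CPM per kb, whose range met neither neighbor. *Tbx3* (6.57), *Dact2* (5.08) and *Rnf43* (4.13) overlapped in that order. *Znrf3* (2.05) and *Axin2* (1.75) overlapped as well, and *Lgr5* was lowest at 0.597 ± 0.256 CPM per kb. The place of the leading pair changed with diet: in Sham HFD *Glul* stood at 418 ± 45.0 and *Cyp1a2* at 89.8 ± 15.6 CPM per kb with no overlap. In the same group *Dact2* (2.71) stood below *Rnf43* (5.31), again with no overlap.

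**Figure D1:**
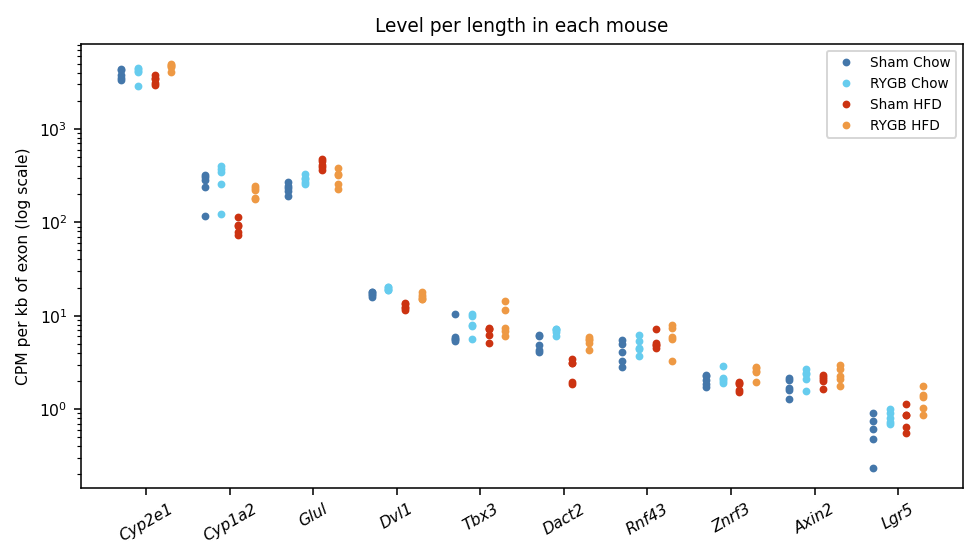
Level of each of the 10 genes per exon length (CPM per kb, log scale) in each of 20 mice, with 1 point per mouse colored by group. *Cyp2e1* lies highest and *Lgr5* lowest in all 4 groups, and *Cyp1a2* lies below *Glul* in every Sham HFD mouse.

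The contrast of Sham HFD with Sham Chow asks what continued HFD does without bypass. *Glul* rose 1.82-fold, *Cyp1a2* fell 2.83-fold, *Dact2* fell 1.88-fold and *Dvl1* fell 1.34-fold in Sham HFD. These 4 of 10 genes were called, 1 higher and 3 lower, beside 21.6% of all tested genes (10.9% higher, 10.7% lower). The groups did not overlap for the same 4 genes, beside 16.5% of all tested genes (8.48% higher, 8.06% lower). The 5 genes listed as Wnt targets, apart from the pericentral enzymes, were *Axin2*, *Lgr5*, *Rnf43*, *Znrf3* and *Tbx3*. They had 0 calls with edgeR here and 0 at an unadjusted p under 0.05, which 35.7% of all tested genes passed.

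The contrast of RYGB HFD with Sham HFD asks what bypass does while HFD goes on. *Cyp1a2* rose 2.37-fold, *Dact2* 1.96-fold, *Znrf3* 1.42-fold, *Cyp2e1* 1.38-fold and *Dvl1* 1.26-fold, while *Glul* fell 1.38-fold. These 6 of 10 genes were called, 5 higher and 1 lower, beside 16.4% of all tested genes (8.54% higher, 7.9% lower). The groups did not overlap for *Cyp2e1*, *Cyp1a2*, *Dvl1* and *Dact2*, all higher after RYGB, beside 14.7% of all tested genes (7.25% higher). Both contrasts use the same Sham HFD mice, so a value of these mice enters both with opposite sign.

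Surgery on chow gave 0 calls among the 10 genes with edgeR, DESeq2 and limma-voom alike, beside 0.057% of all tested genes with edgeR. At an unadjusted p under 0.05, 4 of the 10 genes passed (*Axin2*, *Glul*, *Dvl1* and *Dact2*, all higher in RYGB Chow), beside 10.8% of all tested genes (5.7% higher). HFD in RYGB mice gave 1 call, *Dvl1*, which was lower on HFD, beside 3.65% of all tested genes (1.65% lower). At an unadjusted p under 0.05, *Lgr5*, *Dvl1* and *Dact2* passed there, beside 18.8% of all tested genes. The test of the surgery by diet interaction, the HFD effect in RYGB mice less that in sham mice, gave 1 call, *Glul*, beside 5.06% of all tested genes (2.58% negative). *Znrf3*, *Cyp2e1*, *Cyp1a2* and *Dact2* had an unadjusted p under 0.05 in it as well, which 20.8% of all tested genes passed.

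**Figure D2:**
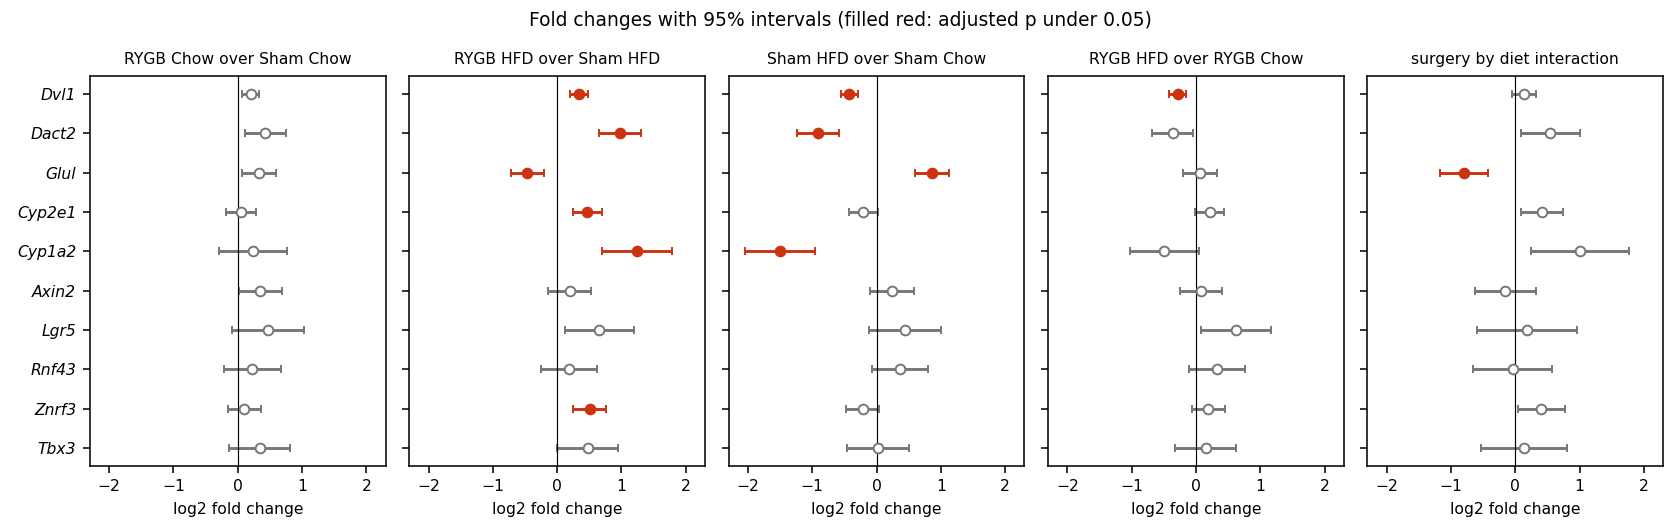
Log2 fold changes of the 10 genes (points) with 95% intervals (bars) in the 4 contrasts and the interaction, with filled red points for an adjusted p under 0.05. 6 points are red for RYGB HFD over Sham HFD, 4 for Sham HFD over Sham Chow, 1 for RYGB HFD over RYGB Chow (*Dvl1*), 1 for the interaction (*Glul*) and none for RYGB Chow over Sham Chow.

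*Glul* (ENSMUSG00000026473, chr1:153899944-153909723) encodes glutamine synthetase, which fixes ammonia in the last rows of hepatocytes around the central vein. The 5 Sham Chow mice had 889.7, 631, 722, 768 and 809.7 CPM. The 5 Sham HFD mice had 1200.4, 1297, 1372, 1497 and 1572 CPM. Every Sham HFD mouse was above every Sham Chow mouse, with means of 1388 ± 149.6 and 764 ± 96.7 CPM (SD, n = 5). The difference was 0.86 (SE 0.13, adjusted p = 8.94e-05 in edgeR).

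After RYGB, *Glul* was not called between the diets. The 5 RYGB Chow mice had 903, 958, 852, 994 and 1100.3 CPM, and the 5 RYGB HFD mice had 1279.8, 1059, 746, 856 and 1083 CPM. These groups overlapped, and their difference was 0.06 with a 95% interval from -0.20 to 0.32. RYGB HFD lay below Sham HFD by a log2 change of -0.47 (SE 0.12, adjusted p = 0.0134), although 1 RYGB HFD mouse at 1279.8 CPM exceeded the lowest Sham HFD mouse. The interaction was -0.80 (SE 0.18, adjusted p = 0.0124), so the HFD effect on *Glul* was smaller in RYGB mice than in sham mice by a tested difference. Of the words of 100 bases in *Glul* transcripts, 1.77% also occur in the pseudogene Glns-ps1, where the counting could have split reads.

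*Cyp1a2* (ENSMUSG00000032310, chr9:57676937-57683703) encodes the cytochrome P450 that metabolizes caffeine and aromatic amines, and it is a textbook pericentral gene. The Sham HFD mice had 187, 146, 159.7, 183 and 228 CPM, and the RYGB HFD mice had 369, 449, 359, 490.2 and 471 CPM. All RYGB HFD mice were above all Sham HFD mice. The difference was 1.24 (SE 0.26, adjusted p = 0.00241).

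On chow *Cyp1a2* had higher means but spread widely. The Sham Chow mice had 653, 235, 476, 575 and 615 CPM, and the RYGB Chow mice had 518, 749, 247, 689 and 803 CPM. The lowest mice of these groups had 235 and 247 CPM, where the next had 476 and 518 CPM. The groups overlapped (log2 change 0.23, SE 0.26, adjusted p = 0.794). Sham HFD lay below Sham Chow by a log2 change of -1.50 (SE 0.26, adjusted p = 4.72e-04), and the lowest Sham Chow mouse at 235 CPM was still above the highest Sham HFD mouse. In RYGB mice the HFD change was -0.49 with a 95% interval from -1.03 to 0.04, not called. The interaction of 1.01 (SE 0.36) had an unadjusted p of 0.0115 and an adjusted p of 0.113 in edgeR, and the adjusted p was 0.0278 without the Sham Chow mouse at 235 CPM. *Cyp1a2* shares 1.99% of its words of 100 bases with its paralog Cyp1a1, which did not pass the filter.

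*Cyp2e1* (ENSMUSG00000025479, chr7:140763739-140774987) changed less in fold terms. The Sham HFD mice had 7623, 6734, 6338, 8043 and 7385 CPM, and the RYGB HFD mice had 8766, 10667, 9968, 10355 and 10226 CPM, again without overlap. The difference was 0.47 (SE 0.11, adjusted p = 0.00555). Sham Chow averaged 8319 ± 976 and RYGB Chow 8623 ± 1365 CPM (n = 5), and both ranges overlapped those of the HFD groups. The HFD change in sham mice was -0.20 (95% interval from -0.43 to 0.03), not called.

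The pericentral enzymes thus did not share a direction: *Glul* was higher and *Cyp1a2* lower in Sham HFD than in Sham Chow, and both had the opposite sign in the contrast of RYGB HFD with Sham HFD, which uses the same Sham HFD mice. Over all 20 mice the level of *Glul* (log2 CPM) had a Pearson's r of -0.46 with that of *Cyp1a2*, and 0.52 once each group's mean was removed. *Cyp2e1* and *Cyp1a2* had an r of 0.70 over the 20 mice and 0.77 after removal of the group means. These correlations are descriptions over 20 libraries in 4 groups.

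*Dvl1* (ENSMUSG00000029071, chr4:155847402-155859303) had the smallest spread among mice of the 10 genes in each group but RYGB HFD, with a coefficient of variation from 3.95% to 7.53%. The Sham Chow mice had 79.7, 83.5, 84.6, 88.7 and 89.0 CPM, and the RYGB Chow mice had 94.4, 103, 101, 93.8 and 96.7 CPM. The Sham HFD mice had 58.1, 68.7, 62.4, 61.1 and 66.7 CPM, and the RYGB HFD mice had 74.9, 89.1, 79.9, 82.6 and 74.6 CPM. Sham HFD was lowest and RYGB Chow highest, and the 2 groups of each of the 4 contrasts did not overlap. *Dvl1* was the only one of the 10 genes of which this held in every contrast.

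The HFD change of *Dvl1* was -0.42 in sham mice (SE 0.06, adjusted p = 1.20e-04) and -0.28 in RYGB mice (SE 0.06, adjusted p = 0.0172). The latter call was lost in a model of only the 2 groups (adjusted p = 0.0693), with no filter (0.0577) and without RYGB HFD replicate 1 (0.0520). The surgery change was 0.34 on HFD (SE 0.06, adjusted p = 0.00107) and 0.20 on chow (SE 0.06), where the adjusted p was 0.268. In that chow contrast *Dvl1* was the single gene of the 10 whose groups did not overlap, beside 1.33% of all tested genes (0.74% higher). A two-sided exact permutation test of its log2(CPM + 0.5) gave p = 0.00794 in each of the 4 contrasts, the smallest value that 5 mice against 5 allow. That value follows from the lack of overlap and adds nothing to it. The study had already ranked *Dvl1* among its top genes for surgery and for diet in these same mice. The interaction was 0.14 (95% interval from -0.05 to 0.33), not called.

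*Dact2* (ENSMUSG00000048826, chr17:14195052-14204304), a dishevelled-binding protein also described as an inhibitor of TGF-β receptor signaling, also had its lowest mean in Sham HFD and its highest in RYGB Chow. The Sham HFD mice had 6.32, 10.5, 6.67, 11.6 and 10.7 CPM. The RYGB HFD mice had 18.8, 19.3, 14.6, 19.99 and 17.3 CPM. The groups did not overlap and differed by 0.97 (SE 0.16, adjusted p = 2.54e-04).

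The Sham Chow mice had 20.9, 14.0, 20.3, 14.3 and 16.3 CPM of *Dact2*, all above the Sham HFD mice (log2 change with HFD -0.91, SE 0.16, adjusted p = 4.38e-04). The RYGB Chow mice had 20.4, 24.2, 24.0, 24.6 and 22.5 CPM, and their range overlapped that of Sham Chow. On chow the surgery change of 0.43 (SE 0.15) had an unadjusted p of 0.0104 and an adjusted p of 0.299. RYGB HFD lay below RYGB Chow in every mouse, one of 2 genes of the set with no overlap in that contrast (beside 5.05% of all tested genes, 2.41% lower), but the change of -0.36 was not called (adjusted p = 0.199). *Dvl1* and *Dact2* had an r of 0.87 over the 20 mice and of 0.24 after removal of the group means.

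Other members of these families gave few calls. Dvl3 was higher in RYGB HFD than in Sham HFD by 0.29 (adjusted p = 0.0402), and the relay list had no such call with library size only as scaling. Dvl2, at 5.16 to 6.57 CPM as group means, was called in no contrast. Axin1, a scaffold of the β-catenin degradation complex, was lower in Sham HFD than in Sham Chow by a log2 change of -0.32 (adjusted p = 0.0164), while no relay gene was called lower in that contrast with library size only. Dact1 averaged 2.83 to 3.54 CPM and was not called, and Dact3 averaged under 1 CPM in each group.

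**Figure D3:**
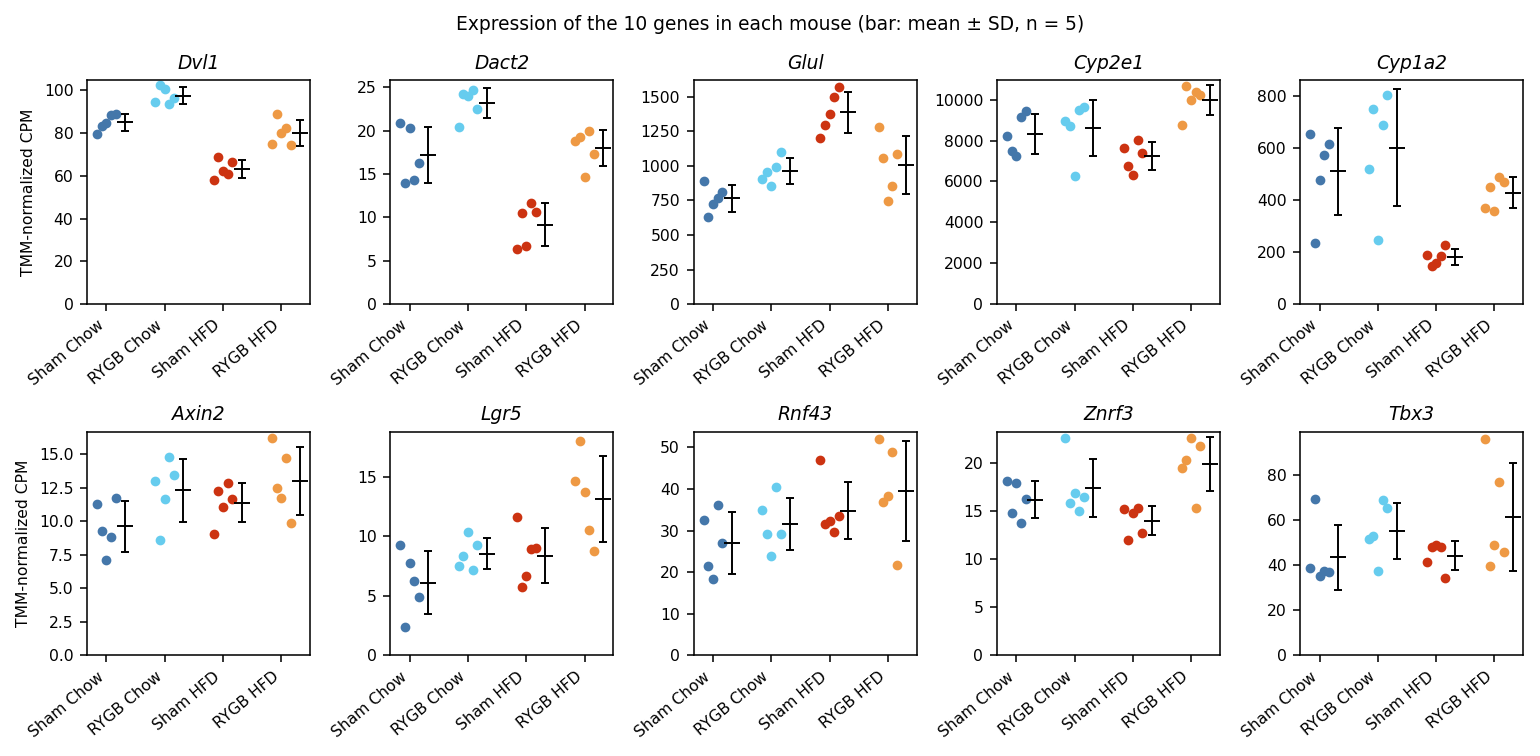
TMM-normalized CPM of each of the 10 genes in each mouse (points), with the mean and SD of each group of 5 mice (bars). *Dvl1* groups lie apart in every contrast, *Glul* is highest and *Cyp1a2* and *Dact2* are lowest in Sham HFD, and the groups of *Axin2*, *Rnf43* and *Tbx3* overlap.

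*Znrf3* (ENSMUSG00000041961, chr11:5276324-5444847) removes Wnt receptors from the membrane and is itself switched on by Wnt signaling. It was the only one of the 5 genes listed as Wnt targets with a call. The called pericentral enzymes *Glul*, *Cyp1a2* and *Cyp2e1*, of a zone that Wnt signaling also switches on, were listed apart. The Sham HFD mice had 15.2, 12.0, 14.8, 15.3 and 12.8 CPM, and the RYGB HFD mice had 19.5, 20.3, 22.5, 15.3 and 21.7 CPM. A single RYGB HFD mouse lay within the range of Sham HFD and the other 4 above it. The difference was 0.51 (SE 0.12, adjusted p = 0.00704, exact permutation p = 0.0159). On chow the surgery change was 0.10 (95% interval from -0.16 to 0.36), and the interaction of 0.41 (SE 0.17) missed the threshold at an adjusted p of 0.184.

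*Lgr5* (ENSMUSG00000020140, chr10:115450311-115587780), an R-spondin receptor, had its highest mean in RYGB HFD. The RYGB HFD mice had 14.6, 18.0, 13.7, 10.5 and 8.77 CPM, and the Sham HFD mice had 11.6, 5.73, 6.63, 8.93 and 8.99 CPM. The groups overlapped, and the difference of 0.66 (SE 0.26) was not called at an adjusted p of 0.0908. Without Sham Chow replicate 2, the mouse with 2.43 CPM where the other Sham Chow mice had 4.91 to 9.27, the shared estimate of the spread changed and the adjusted p was 0.0351. The HFD change in RYGB mice was 0.63 (SE 0.26, unadjusted p = 0.0256, adjusted p = 0.195).

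*Axin2* (ENSMUSG00000000142, chr11:108920349-108950783), a scaffold of the degradation complex and a standard readout of Wnt/β-catenin activity, averaged 9.64 ± 1.90 CPM in Sham Chow and 12.3 ± 2.35 CPM in RYGB Chow (SD, n = 5). On HFD it averaged 11.4 ± 1.45 CPM after sham surgery and 13.0 ± 2.52 CPM after RYGB. The 4 ranges overlapped one another. Its largest difference, 0.35 with surgery on chow (SE 0.16), had an unadjusted p of 0.0410 and an adjusted p of 0.439. The 95% intervals of its change were -0.14 to 0.53 for surgery on HFD and -0.10 to 0.58 for HFD in sham mice.

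*Rnf43* (ENSMUSG00000034177, chr11:87662722-87735539), the partner ligase of *Znrf3*, averaged 27.1 ± 7.38 CPM in Sham Chow and 31.6 ± 6.34 CPM in RYGB Chow. On HFD it averaged 34.8 ± 6.89 CPM after sham surgery and 39.6 ± 11.9 CPM after RYGB. No contrast was called, and its change with surgery on HFD was 0.19 (95% interval from -0.25 to 0.62). *Tbx3* (ENSMUSG00000018604, chr5:119670669-119684724), a transcription factor of pericentral hepatocytes, averaged 43.5 ± 14.4, 55.2 ± 12.5, 44.3 ± 6.37 and 61.5 ± 24.0 CPM in the same order. RYGB HFD mice ranged from 39.8 to 95.9 CPM, and the surgery change on HFD of 0.47 (95% interval from -0.00 to 0.95) was not called (adjusted p = 0.165). An antisense gene, Tbx3os1, shares 115 exon bases with *Tbx3*, held at most 380 counts in a mouse and was higher in RYGB HFD than in Sham HFD by 1.29 (adjusted p = 0.00111 in edgeR). The libraries keep strand, but whether the counting used it is not given in the sources used here, so reads of the shared bases are uncertain.

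The median change of these 5 Wnt targets was 0.47 with surgery on HFD, 0.34 with surgery on chow, 0.24 with HFD in sham mice and 0.19 with HFD in RYGB mice. Over all tested genes the medians lay between -0.00 and 0.01 in these contrasts. The 5 tested genes of a further list of Wnt targets, described below, had medians of -0.33, 0.39, 0.63 and 0.07 in the same order. The 2 lists thus had opposite signs with surgery on HFD.

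The pathway upstream of the 10 genes was covered by lists of ligands, receptors and inhibitors. Of 19 Wnt ligands, 4 passed the filter. Wnt5b, a ligand of β-catenin-independent signaling, was higher in Sham HFD than in Sham Chow by 0.71 (adjusted p = 0.00559) and had a log2 change of -0.68 with surgery on HFD (adjusted p = 0.00850). Wnt2 and Wnt9b, which central vein endothelium is known to release, averaged at most 5.53 and 1.64 CPM in any group and were called in no contrast. Of 4 R-spondins only Rspo3, the pericentral one, was tested, and it was higher in Sham HFD than in Sham Chow by 0.69 (adjusted p = 0.00599). Wls, which carries Wnt ligands to the cell surface, was higher in the same contrast by 0.68 (adjusted p = 0.0345). Porcn, which lipidates them, was lower in RYGB HFD than in RYGB Chow by a log2 change of -0.76 (adjusted p = 0.0279). Levels were low: Rspo3 averaged 4.20 CPM in Sham Chow and 6.79 CPM in Sham HFD, with overlapping groups. Wls averaged 4.70 and 7.56 CPM in that order, and Porcn 4.58 CPM in RYGB Chow and 2.71 CPM in RYGB HFD, both without overlap. Of all tested genes, 10.9% were called higher with HFD in sham mice, 7.9% lower with surgery on HFD and 1.65% lower with HFD in RYGB mice.

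Of 17 Wnt and R-spondin receptors, 11 were tested. In Sham HFD compared with Sham Chow 2 were higher and 3 lower, beside 10.9% higher and 10.7% lower among all tested genes. Fzd1 (0.59) and Fzd4 (0.45) were the higher ones, and Ryk (-0.48, adjusted p = 4.38e-04) was among the lower ones. With library size only as scaling, 2 receptors were higher and 1 lower. With surgery on HFD Fzd1 (-0.39) and Fzd4 (-0.50) were lower, and Ryk (0.33) and Lgr4 (0.28) were higher, against 0 higher and 2 lower with library size only. Of all tested genes, 8.54% were called higher and 7.9% lower with surgery on HFD. Lgr4, the R-spondin receptor spread over the whole lobule, had an interaction of 0.51 (SE 0.10, adjusted p = 0.00704). Of 15 secreted Wnt inhibitors 3 were tested, and Dkk3 had a log2 change of -1.21 with surgery on HFD (adjusted p = 0.00621). Its means there were low, 3.34 CPM in Sham HFD and 1.45 CPM in RYGB HFD. Notum, more abundant, went the other way and was not called. It ranged from 22.7 to 28.2 CPM in Sham HFD and from 30.3 to 45.1 CPM in RYGB HFD.

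Inside the cell, 17 of 20 relay genes were tested besides *Dvl1* and *Dact2*. In Sham HFD compared with Sham Chow Btrc, the adaptor that marks β-catenin for degradation, was higher by 0.28 (adjusted p = 0.0314). The transcript of β-catenin itself, Ctnnb1, averaged 173 to 189 CPM in the 4 groups and was not called in any contrast. Of 11 nuclear effectors tested, the corepressor Tle3 was higher in Sham HFD than in Sham Chow by 0.91 (adjusted p = 0.00396), while Tle4 (-0.57) and Tle1 (-0.32) were lower (3 higher and 1 lower with library size only). Tle4 (0.75, adjusted p = 4.75e-04) and Tle1 (0.56, adjusted p = 8.45e-04) were higher in RYGB HFD than in Sham HFD. Among all tested genes, 10.9% were called higher and 10.7% lower with HFD in sham mice. The shares with surgery on HFD were 8.54% higher and 7.9% lower.

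Of 6 other Wnt target genes 5 were tested, and 3 were higher in Sham HFD than in Sham Chow, beside 10.9% of all tested genes called higher. They were Ccnd1, a cell cycle cyclin (1.71, adjusted p = 0.00299), Tnfrsf19 (1.33, adjusted p = 0.00417) and Nkd1, an inhibitor that binds dishevelled (0.63, adjusted p = 0.0316). None of the 5 was called in RYGB HFD compared with Sham HFD in edgeR, beside 16.4% of all tested genes. There 1 of them was lower at an unadjusted p under 0.05, for which the share over all tested genes is not given here.

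Among 24 other pericentral genes, all tested, 7 were higher and 7 lower in Sham HFD than in Sham Chow (10 and 6 with library size only), beside 21.6% of all tested genes called (10.9% higher, 10.7% lower). Cyp2c54, a cytochrome P450, was lower by a log2 change of -3.11, and Slc13a3, a dicarboxylate carrier, and Slc1a4, a neutral amino acid carrier, were higher by 2.02 and 1.67. In RYGB HFD compared with Sham HFD 5 were higher and 6 lower (4 and 7 with library size only), beside 16.4% of all tested genes called, with Cyp2c54 (2.57) and Avpr1a, a vasopressin receptor (2.15), higher and Slc1a4 (-1.09) lower. The list median was 0.05 and 0.03, beside about 0 and 0.01 over all tested genes. In both contrasts Cyp2c54 had the sign of *Cyp1a2*, and Slc13a3, at -1.08 in the second, had the sign of *Glul*.

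Of 21 periportal genes, all tested, 2 were higher and 8 lower in Sham HFD than in Sham Chow, beside 10.9% higher and 10.7% lower among all tested genes. The list median was -0.29, and that of all tested genes -0.0047. The lower ones included Cps1, the first enzyme of the urea cycle (-1.01, adjusted p = 0.00114), and Cdh1, the cell adhesion protein E-cadherin (-1.57, adjusted p = 0.00127). In RYGB HFD compared with Sham HFD Cdh1 (2.31) and Cps1 (0.86) were among 3 higher, and Fbp1, of gluconeogenesis, was among 2 lower (-0.58), against 3 higher and 5 lower with library size only. Among all tested genes 8.54% were called higher and 7.9% lower in that contrast. Of 5 other targets of AHR 2 were tested. Nqo1, a quinone reductase, was higher with HFD in sham mice by 0.83 and lower with RYGB on HFD by a log2 change of -1.71 (adjusted p = 4.85e-05). Both signs are opposite to those of *Cyp1a2* in these contrasts, which share the Sham HFD mice. With HFD in RYGB mice Nqo1 was lower by a log2 change of -0.98 (adjusted p = 0.0246), the sign of *Cyp1a2* there (-0.49, not called). The part of AHR in these changes was not tested.

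**Figure D4:**
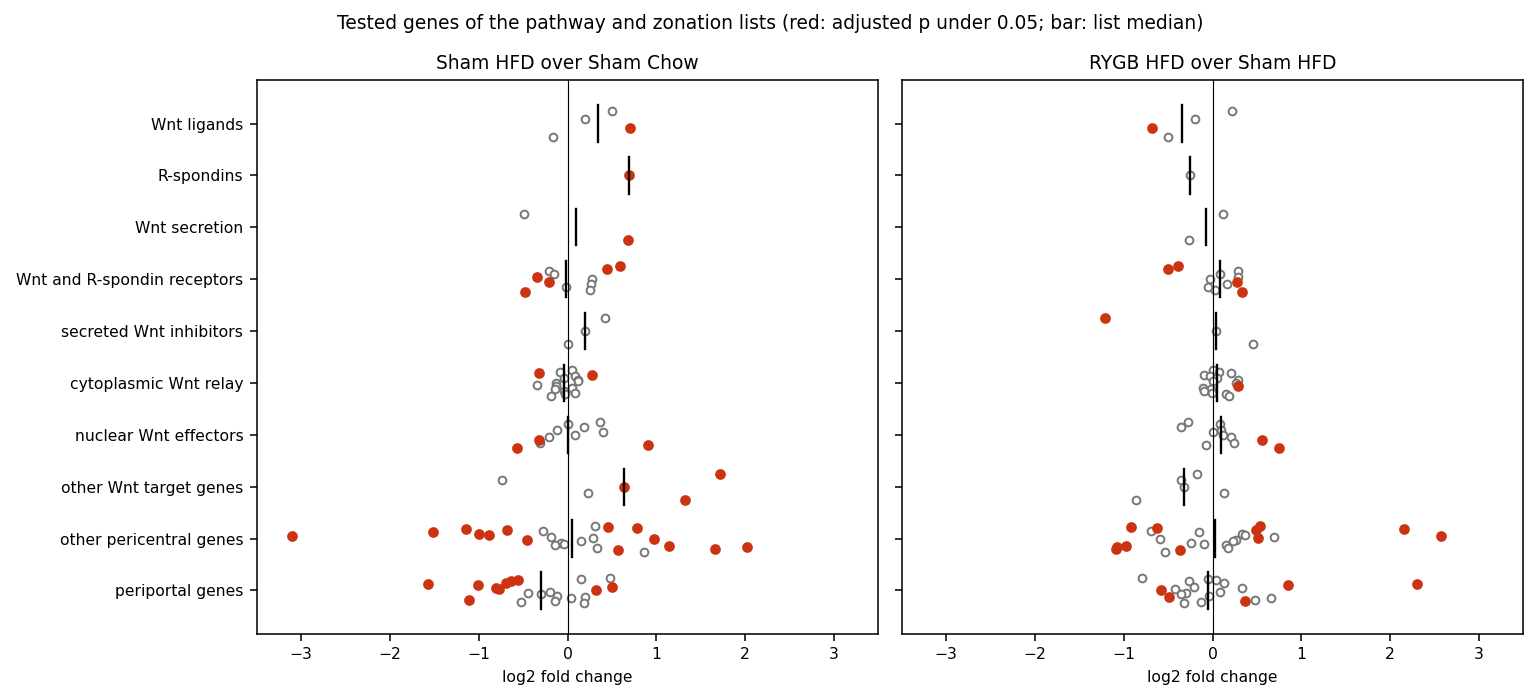
Log2 fold changes of the tested genes of each pathway and zonation list (points, 1 per gene, red for an adjusted p under 0.05) with the list median (bar), for Sham HFD over Sham Chow and RYGB HFD over Sham HFD. Pericentral genes lie on both sides of 0 in both panels, and Cyp2c54 is the leftmost point on the left (-3.11) and the rightmost on the right (2.57).

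Markers of other cells moved in the same contrasts. Of all tested genes, 10.9% were called higher and 10.7% lower with HFD in sham mice. With RYGB on HFD the shares were 8.54% higher and 7.9% lower. All 6 stellate cell markers were higher in Sham HFD than in Sham Chow, with a summed level of 293 to 357 CPM against 136 to 219.7 CPM, and 3 were lower with RYGB on HFD (191 to 289 CPM). Of 6 macrophage markers 5 were higher in Sham HFD than in Sham Chow (217 to 291 CPM against 91.1 to 235 CPM) and none was called with RYGB on HFD. None of 6 endothelial markers was called in either contrast with edgeR. At an unadjusted p under 0.05, 1 was higher with HFD in sham mice, where 35.7% of all tested genes passed in either direction. With RYGB on HFD 1 was lower at that threshold, for which the share over all tested genes is not given here. The summed hepatocyte markers lay at 95025 to 113909 CPM in RYGB HFD and 66380 to 80094 CPM in Sham HFD, with 3 of 4 called higher and Ttr lower. In Sham HFD compared with Sham Chow, at 76099 to 96358 CPM, 2 of the 4 were called lower, Apoa1 (-0.49) and Ahsg (-0.38). Few markers of other kinds were called in these contrasts: Spp1 of cholangiocytes (0.74) and Ptprc of lymphocytes (1.11) were higher and Lgals4 of gut (-0.50) lower in Sham HFD than in Sham Chow, Tff3 of gut (4.58) was higher with RYGB on HFD, and no red cell marker was called. The part of these markers in the changes of *Glul*, *Cyp1a2*, *Dvl1* and *Dact2* was not tested.

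The genes with the pattern most like each of the 10 were ranked by Pearson's r of log2 CPM over the 20 mice, as a description. *Dvl1* was most like Rack1 (0.96), which encodes a scaffold protein bound to the ribosome, and the r with Rack1 was 0.85 after removal of the group means. *Cyp1a2* was most like Cyp2c70 (0.92), Aprt (0.91) and Pla1a (0.91), with 0.82, 0.70 and 0.75 after that removal. *Dact2* was most like Utp14a (0.92), Apom (0.90) and Eif4enif1 (0.88), with only 0.45, 0.58 and 0.37 after it. *Glul* was most like Slc13a3 (0.88, and 0.56 after it), which is in the list of pericentral genes.

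*Cyp2e1* was most like Pde4c (0.88), F11 (0.87) and Hrg (0.86), with 0.74, 0.77 and 0.80 after removal of the group means. F11 and Hrg encode plasma proteins made by hepatocytes. For the other listed Wnt targets the first genes were Nup210 for *Lgr5* (0.84), Frmd8 for *Rnf43* (0.81), 2810410L24Rik for *Tbx3* (0.78) and Ttc9c for *Axin2* (0.73). Their values after the removal were 0.72, 0.75, 0.77 and 0.77 in that order. *Znrf3*, the called one, was most like Dmxl2 (0.81, and 0.76 after the removal). Ahr, the gene of the receptor named above, was the third for *Lgr5* (0.79, and 0.55 after it).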

How the data were processed

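Poly-A RNA of 20 mouse livers was sequenced as paired-end, strand-marked libraries. Per the submitters' processing notes, reads were trimmed with Trimmomatic 0.36, checked with FastQC, aligned to mm10 with HISAT2 2.1.0 and counted with featureCounts 1.5.0-p3. The authors deposited raw counts per Ensembl gene, without normalization. The annotation release, the strand setting and the handling of multi-mapping reads are not given in the sources used here. Symbols, positions (GRCm38, which is mm10) and exon lengths were taken from GENCODE M21, which named 54495 of 54532 genes.

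Counts of 12289 genes (CPM of 2 or more in 3 or more mice, the study's filter) were tested with edgeR 4.0.16 (R 4.3.3), quasi-likelihood, TMM factors, two-sided, in one model of the 4 groups, with Benjamini-Hochberg adjustment over all tested genes. The study used DESeq2 on the same groups, kept here as an alternative. Samples were grouped by their titles, with 5 mice per group. Totals ran from 14604854 to 22537498 counts. Intervals are of the log2 fold change between groups. They rest on the spread between mice but do not give the range of single mice. The SE was derived from the fold change and the F statistic of the quasi-likelihood test. An exact permutation test of log2(CPM + 0.5) was run on single genes too. Alternatives were DESeq2 1.42.0, limma-voom (limma 3.58.1), scaling by RLE factors or by library size only, no filter or a CPM of 5, models of 2 groups, the replicate number as a block, unadjusted p, other pseudocounts and leaving out each mouse. Genes named besides the 10 are, per list and contrast, the 3 called genes with the largest change, paralogs, and genes among the 3 most like each of the 10, of which some are not reported here. Outside this rule, Ctnnb1, Wnt2, Wnt9b, Notum, Slc13a3, Tbx3os1, Lgr4 with surgery on HFD and Ttr were chosen with their values in view. The 10 genes and the lists were chosen with earlier results of these data known. The procedure was tested on simulated data. Figures used Python 3.11.15 with matplotlib 3.10.9.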

Additional observations from a re-analysis of the deposited data

Results flagged for a closer look

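Within a group of 5 mice, 1 mouse stood far from the other 4 in 4 of 40 combinations of gene and group, where chance gives about 1 in 20. *Tbx3* was 69.2 CPM in Sham Chow replicate 2, where the next mouse had 38.9 CPM. *Rnf43* was 46.9 CPM in Sham HFD replicate 1, where the next had 33.4 CPM. *Znrf3* was 22.6 CPM in RYGB Chow replicate 1, where the next had 16.9 CPM. *Cyp2e1* was 6276 CPM in RYGB Chow replicate 3, where the next had 8725 CPM, and the same mouse had the lowest *Cyp1a2* of its group at 247 CPM.

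The effect of HFD on *Glul* differed between sham and RYGB mice, with an interaction of -0.80 on the log2 scale (adjusted p = 0.0124 in edgeR). All 5 Sham HFD mice exceeded the Sham Chow mean, while 3 of 5 RYGB HFD mice exceeded the RYGB Chow mean.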

How the results depend on the processing

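Of 390 fold changes of the 10 genes under alternatives other than leaving out a mouse, 387 kept their direction and their side of the threshold, 2 lost the call (*Dvl1* with HFD in RYGB mice, with no filter and in the 2-group model, where the count of called genes fell from 1 to 0) and 1 uncalled value changed sign (the interaction of *Dvl1*, -0.0023 with library size only). By unadjusted p the counts were 4 for surgery on chow, 3 for HFD in RYGB mice and 5 for the interaction, against 0, 1 and 1. With library size only, the median of all genes moved to 0.12 for HFD in sham mice and -0.13 for the interaction, and 80.4% of calls for HFD in sham mice were higher (50.3% with TMM), 26.6% for surgery on HFD (52.0%) and 20.2% for the interaction (49.0%). The calls of the 10 genes were the same genes. Over all genes, surgery on chow gave 7 calls with edgeR, 92 with DESeq2, 3 with limma-voom, 13 with no filter and 0 in the 2-group model, and HFD in RYGB mice gave 448, and 751 with DESeq2 and 184 in the 2-group model. The exact test passed 0.05 in 16 of 40 cases under all 3 pseudocounts. It was not run over all tested genes, and the contrasts share groups. The count therefore has no share to stand beside and shows only that the pseudocount did not matter.

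Leaving out each mouse in turn gave 6 to 7 called genes for surgery on HFD, 4 to 4 for HFD in sham mice, 0 to 1 for HFD in RYGB mice, 0 to 0 for surgery on chow and 1 to 2 for the interaction, the second being *Cyp1a2* without Sham Chow replicate 2. Uncalled fold changes that changed sign ranged, for HFD in RYGB mice, from -0.028 to 0.16 (*Axin2*), -0.039 to 0.15 (*Glul*) and -0.064 to 0.27 (*Tbx3*). For the interaction they ranged from -0.17 to 0.11 (*Rnf43*), -0.018 to 0.39 (*Lgr5*) and -0.099 to 0.25 (*Tbx3*), for HFD in sham mice from -0.045 to 0.25 (*Tbx3*), and for surgery on chow from -0.012 to 0.15 (*Znrf3*).

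Each group numbers its mice 1 to 5, and nothing in the labels says what a number stands for. Mice of the same number deviated together (r over 0.1) in 1, 2, 0 and 2 of 5 pairs of the 4 contrasts. The data thus do not show a pairing by number, and so few pairs cannot exclude one. With the replicate number as a block, the counts of called genes were 0, 6, 4 and 1 for the 4 contrasts and 1 for the interaction. Depth limits the rarest of the 10 genes: *Lgr5* had 47 to 346 counts per mouse.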
